A study of Homo sapiens with 29 samples.

Results

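The genes of glycolysis and of the response to low oxygen were followed across growing, senescent and SMARCA4-depleted senescent fibroblasts through a list of 35 genes. The list holds 4 glucose and lactate transporters, 16 glycolytic enzymes, 3 regulators of flux, 2 hypoxia-inducible factors (HIF) and 10 HIF target and feedback genes. Members were taken by symbol and known role and not by a rule on measured values, but earlier results of these data were known. All 35 were present among the 28266 gene symbols of the count table. The cells were IMR90 ER:RAS, an established human lung fibroblast line in which oncogenic RAS is fused to the ligand-binding domain of the estrogen receptor. The drug 4-hydroxytamoxifen (4OHT) activates the fusion, after which the cells enter oncogene-induced senescence. All groups carried the fusion. DMSO_siNT libraries came from cells given the solvent DMSO and non-targeting siRNA (siNT), 4OHT_siNT libraries from cells given 4OHT and siNT, and 4OHT_siSMARCA4 libraries from cells given 4OHT and siRNA against SMARCA4, an ATPase of the SWI/SNF chromatin remodelling complex. The labels give collection at day 7, 2 siRNAs in each group (numbered 2 and 4) and a set of 1 to 3 marked V or VM, letters that they do not explain. Each group held 6 libraries, and the labels do not say whether these were separate cultures, so p-values measure the spread between these libraries, which may be technical. All results come from 1 cell line.

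Glycolysis breaks glucose down to pyruvate in the cytosol, and lactate dehydrogenase turns pyruvate into lactate, which monocarboxylate transporters carry out of the cell. HIF1A and EPAS1 (HIF-2α) are the oxygen-labile subunits of the HIF dimers. In oxygen they are hydroxylated and degraded. When oxygen falls the dimers bind short elements near target genes, for HIF1A many glycolytic genes, and raise their transcription. Because the control by oxygen acts on the protein, the mRNA level of a HIF subunit does not report the activity of the factor. Senescent fibroblasts are known for high glucose use and lactate release.

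The depth of a library, as summed counts, lay between 9657309 and 13448183 for DMSO_siNT, between 13237672 and 15407710 for 4OHT_siNT and between 11382143 and 18039313 for 4OHT_siSMARCA4. After genes with too few counts were removed, 13136 genes and 33 of the 35 members were tested. SMARCA4 itself was at 217 ± 15.3 CPM (counts scaled to library size; SD, n = 6) in DMSO_siNT, 301 ± 20.9 in 4OHT_siNT and 99.0 ± 27.6 in 4OHT_siSMARCA4, and the knockdown libraries did not overlap the other 2 groups. All 12 fibroblast markers were tested, and their summed level was 14490 to 37954 CPM in growing libraries, 22917 to 31920 CPM in senescent libraries and 14032 to 21431 CPM after knockdown. In senescence 6 of the 12 were called lower (28.9% of all genes) and 3 higher (23.9%), with a median log2 fold change of −0.61. On knockdown 7 of the 12 were called lower (5.65% of all genes). The 5 epithelial markers summed to 103 to 144 CPM in growing, 62.4 to 78.9 CPM in senescent and 34.1 to 57.0 CPM in knockdown libraries. Keratins made up nearly all of this: KRT19 had means of 42.1, 1.27 and 0.79 CPM and KRT8 of 13.5, 7.49 and 6.29 CPM, both called lower in senescence, and KRT18 of 63.2, 61.0 and 42.8 CPM, called lower on knockdown. The 4 immune markers summed to between 45.3 and 75.0 CPM in every library, mostly CD68, and the endothelial and smooth muscle markers did not exceed 5.69 CPM in sum. EPCAM, CDH1, PECAM1, CDH5, PTPRC, MYH11 and DES each stayed at or below 2.51 CPM. The part of these marker differences in the results was not tested. In bulk RNA, fewer cells of a kind and less RNA per cell cannot be told apart.

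One growing library, DMSO_siNT 4-2V (siRNA 4, set 2V), stood apart, and not only in these genes. It held the lowest level of the 6 DMSO_siNT libraries in 14 of 16 glycolytic enzymes, or 87.5%, against 41.5% of all genes tested. Its level was the highest of the 6 in 7 of the 33 members tested, or 21.2%, against 35.7% of all genes tested. PFKP, the platelet-type phosphofructokinase, was at 19.6 CPM in this library and at 171 to 265 CPM in the other 5. Its level was 28.4% of the mean of the others for PGAM1, 30.7% for HK2, 32.4% for PKM, 36.7% for LDHA and 38.8% for ENO1. Of the HIF targets, KDM3A was also lowest in this library, while some others went the other way. HILPDA, a lipid droplet protein, was at 31.1 CPM against 6.99 to 8.55 CPM in the other 5 libraries. ADM was at 202% of their mean and ANKRD37, with a group mean of only 1.66 CPM, at 254%. TPI1 was at 109%. The summed level of the 16 enzymes was 5272 CPM in this library and 11157 ± 593 CPM (SD, n = 5) in the rest. Counts over all members in senescence and for knockdown against growing are therefore given with and without it, as are the changes of named members there. Counts by role, with a single siRNA and in lists of related genes include it.

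**Figure D1:**
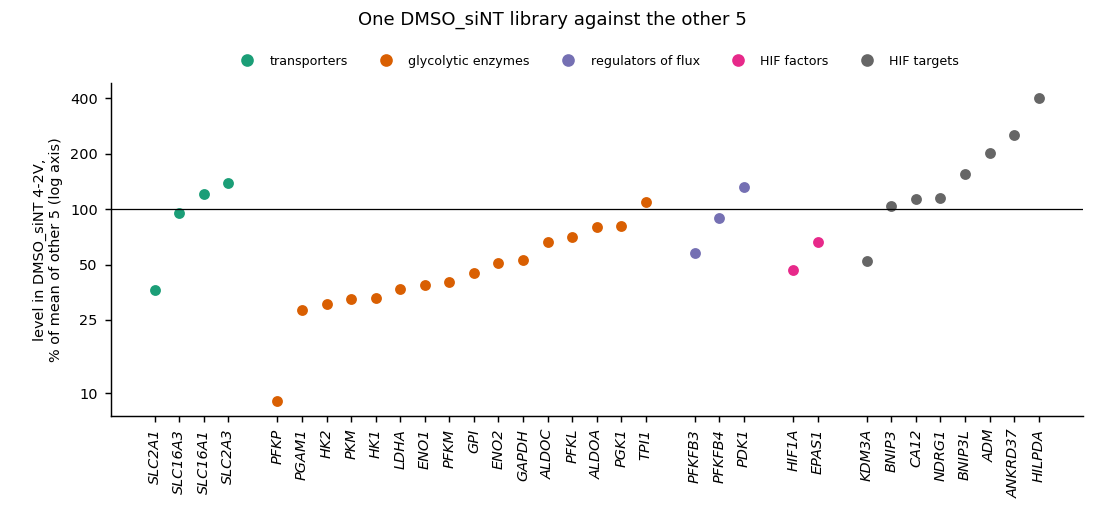
Level of each tested member in the DMSO_siNT 4-2V library as a percentage of the mean of the other 5 DMSO_siNT libraries, on a log axis and coloured by role, with a line at 100%. Glycolytic enzymes run from 9.07% (PFKP) to 109% (TPI1), while HILPDA is at 401%.

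Promoters were read from the RefSeq promoter table (GRCh38.p14) as the 250 bases before the first listed start of each gene, and 30 of the 35 members had an entry. Some of these windows lay within the gene: all 250 bases were in GENCODE v44 exons of the gene itself for GPI, TPI1, PGAM1, ENO1, ENO2 and PKM. The shares below include such windows, and exon bases were not counted for the other promoters of the table. The core of the hypoxia response element, ACGTG or GCGTG on either strand, was present in 20 of the 30, or 66.7%, and in 43.1% of the 27305 promoters of the table. ACGTG alone was present in 36.7% of the members and 18.7% of all promoters, with CACGTG counted once on each strand. The members' windows were also richer in G and C, with a median of 69.0% against 58.0%. The core was present in 10 of the 15 promoters of members higher in senescence, in 3 of 4 of those lower and in 6 of 9 of those not called. The windows of 4 genes are shown because they span the range of responses: HK2 with the largest rise, PFKFB3 with a rise in a regulator, LDHA with 5 matches and no call, and CA12 with the largest fall. Matches are in capitals and each sequence reads 5′ to 3′ on the strand of its gene.
HK2, chr2:74833877-74834126, plus strand: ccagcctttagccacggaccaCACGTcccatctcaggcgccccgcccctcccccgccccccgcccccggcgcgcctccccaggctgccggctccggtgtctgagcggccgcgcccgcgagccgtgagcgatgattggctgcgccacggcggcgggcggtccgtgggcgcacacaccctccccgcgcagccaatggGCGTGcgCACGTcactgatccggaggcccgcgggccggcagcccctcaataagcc
PFKFB3, chr10:6144671-6144920, plus strand: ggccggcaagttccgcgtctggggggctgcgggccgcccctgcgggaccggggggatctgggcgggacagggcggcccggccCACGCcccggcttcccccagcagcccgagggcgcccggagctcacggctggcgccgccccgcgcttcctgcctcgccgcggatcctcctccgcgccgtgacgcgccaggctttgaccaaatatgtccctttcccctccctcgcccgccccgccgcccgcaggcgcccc
LDHA, chr11:18394313-18394562, plus strand: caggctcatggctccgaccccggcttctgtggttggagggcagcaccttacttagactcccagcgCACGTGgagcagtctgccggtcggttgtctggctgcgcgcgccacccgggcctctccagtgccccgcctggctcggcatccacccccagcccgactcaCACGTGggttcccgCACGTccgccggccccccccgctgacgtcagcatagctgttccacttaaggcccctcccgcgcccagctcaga
CA12, chr15:63381847-63382096, minus strand: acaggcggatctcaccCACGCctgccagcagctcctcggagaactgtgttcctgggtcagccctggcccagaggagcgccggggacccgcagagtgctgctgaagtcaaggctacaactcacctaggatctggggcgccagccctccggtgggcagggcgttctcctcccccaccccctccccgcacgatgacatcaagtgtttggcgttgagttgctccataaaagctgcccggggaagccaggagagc
The windows of HK2, PFKFB3, LDHA and CA12 sit at the gene starts of GENCODE v44, with at most 3 bases in an exon of the gene itself. That of HK2 shares 111 bases with exons of the neighbouring lncRNA gene HK2-DT. A match is a description of the letters in the window and not a bound site.

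Activation of RAS was compared first, as 4OHT_siNT against DMSO_siNT. Genes were called with edgeR's quasi-likelihood test at an adjusted p under 0.05 over all genes tested. Of the 33 members tested, 17 were called higher in senescent cells, where 23.9% of all genes were, and 4 were called lower, where 28.9% of all genes were. The median log2 fold change of the members was 0.43, and that of all genes tested was −0.05. In 16 members every senescent library lay above every growing library, and in 2 every one lay below, shares that were 17.0% and 16.8% over all genes. Without the 4-2V library, 21 members were called higher (27.9% of all genes) and 5 lower (30.3%), and 17 and 2 did not overlap (19.9% and 21.3%). All 21 calls were kept without this library, and 5 were added (ENO1, SLC2A1, SLC16A1, BNIP3L and ANKRD37). All 4OHT_siNT libraries were from VM sets, while 3 of the DMSO_siNT libraries were from V sets. Within VM sets alone, 20 members were called higher (25.6% of all genes) and 3 lower (27.9%). With set labels fitted as a replicate block, the calls of HK1, PFKM, PGAM1, EPAS1 and ADM were lost.

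**Figure D2:**
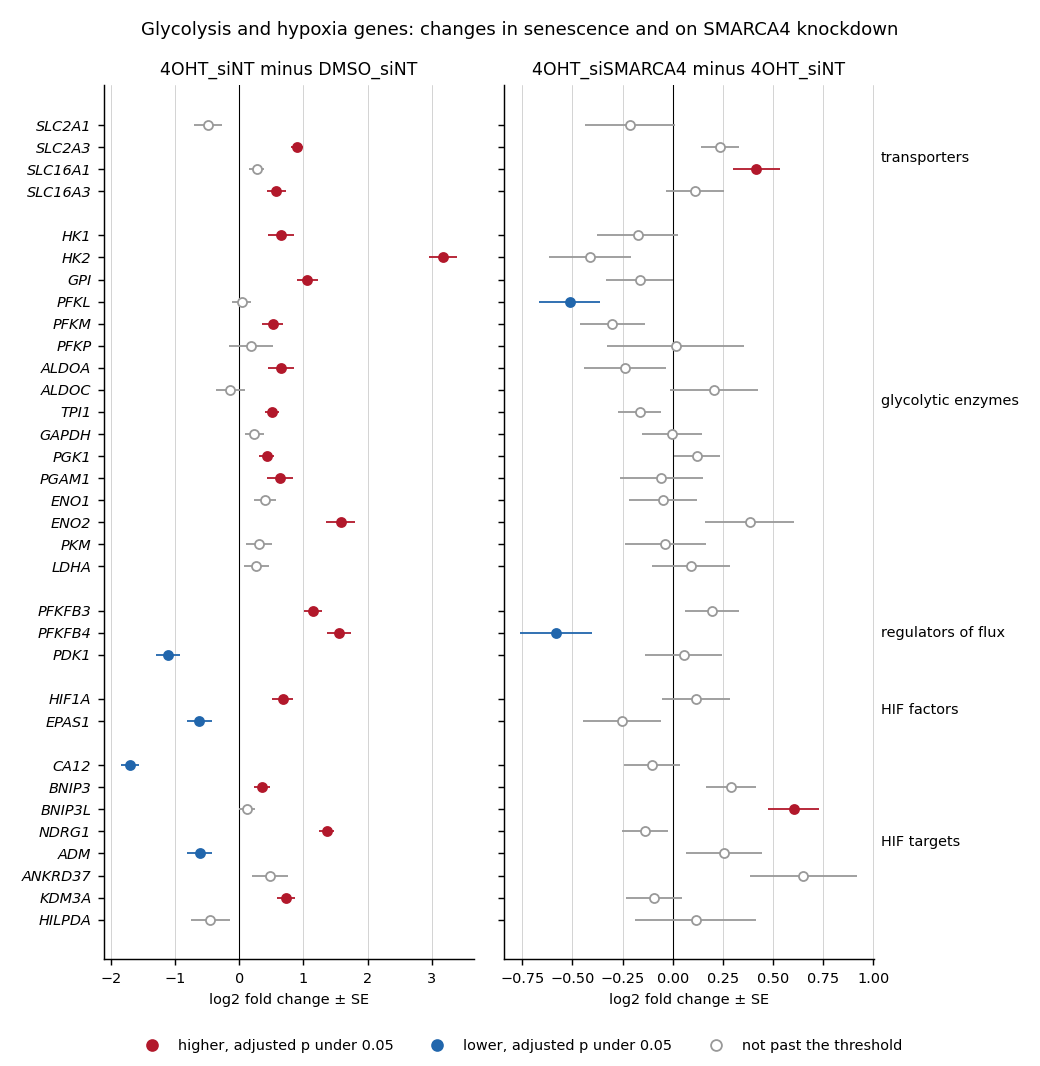
Log2 fold change ± SE of the 33 tested members in senescence (left) and on SMARCA4 knockdown (right), grouped by role; filled red and blue points passed an adjusted p under 0.05 and open points did not, and the axes differ in range. The left panel shows 17 red and 4 blue points with HK2 at 3.18, and the right panel shows 2 of each.

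Hexokinases, which phosphorylate glucose on entry and trap it in the cell, gave the largest change. HK2, the inducible isoform, ran from 9.08 to 37.5 CPM in growing libraries with a median of 27.3 CPM, and from 215 to 254 CPM in senescent libraries with a median of 238 CPM. The groups were far apart, and HK2 rose by 3.18 ± 0.22 on the log2 scale (adjusted p = 5.64e-10), or 9.04-fold. Without the 4-2V library its log2 fold change was 3.01, and within VM sets it was 2.93. HK1, the constitutive isoform, ran from 71.95 to 246 CPM (median 212) in growing and from 255 to 345 CPM (median 315) in senescent libraries. HK1 rose by 0.65 ± 0.20 (adjusted p = 0.0113), and by 0.49 without 4-2V. Per kilobase of canonical transcript, HK1 was at 54 and HK2 at 4.66 CPM in growing cells, and these levels were 84.7 and 42.3 CPM in senescent cells.

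The next step, glucose-6-phosphate isomerase, moved in the same direction. GPI ran from 97.5 to 221 CPM (median 215) in growing and from 350 to 473 CPM (median 409) in senescent libraries. Its log2 fold change was 1.06 ± 0.17 (adjusted p = 2.79e-05), and the 5 growing libraries other than 4-2V lay within 208 to 221 CPM, against which it was 0.93. Phosphofructokinase, which commits the sugar to glycolysis, has 3 isoforms. The muscle isoform PFKM rose by 0.52 ± 0.16 (adjusted p = 0.0117), from a mean of 88.9 to 127 CPM, and by 0.37 without 4-2V. The liver isoform PFKL had means of 153 and 157 CPM and PFKP means of 183 and 209 CPM, and neither was called (adjusted p = 0.86 and 0.668). Without 4-2V their log2 fold changes were −0.03 for PFKL and −0.04 for PFKP.

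Among the enzymes of the later steps the neuronal enolase isoform changed most. ENO2 ran from 19.96 to 40.8 CPM (median 39.2) in growing and from 67.3 to 154 CPM (median 107) in senescent libraries, and rose by 1.58 ± 0.23 (adjusted p = 1.02e-05), or by 1.47 without 4-2V. The major enolase ENO1 ran from 468 to 1233 CPM and from 1298 to 1574 CPM. Its groups did not overlap, but its log2 fold change of 0.40 ± 0.17 had an adjusted p of 0.0534. ENO1 passed the test when any 1 of 4 growing libraries was left out (2-1V, 2-2V, 4-2V or 4-3VM), with 0.25 (adjusted p = 0.0069) without 4-2V, and by DESeq2 with all libraries (0.42, adjusted p = 0.027). PGAM1, phosphoglycerate mutase, ran from 19.8 to 79.2 CPM (median 66.8) in growing and from 86.3 to 102 CPM (median 96.9) in senescent libraries and rose by 0.64 ± 0.21 (adjusted p = 0.0147), or by 0.46 without 4-2V.

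Triose-phosphate isomerase TPI1 rose by 0.51 ± 0.11 (adjusted p = 0.000463), from a mean of 571 to 816 CPM. The ATP-yielding kinase PGK1 rose by 0.43 ± 0.12 (adjusted p = 0.00451), from 351 to 472 CPM. ALDOA, the main aldolase of fibroblasts, was counted at only 9.03 to 16.6 CPM (median 11.9) in growing and 13.8 to 24.4 CPM (median 18.6) in senescent libraries. Its groups overlapped, and its log2 fold change was 0.65 ± 0.21 (adjusted p = 0.0124). Of its exon bases, 42.8% are shared on the same strand with the overlapping gene ENSG00000285043 in GENCODE v44, so its counts are uncertain. The brain isoform ALDOC was at 11.2 and 10.2 CPM and was not called. Without 4-2V the log2 fold changes were 0.54 for TPI1, 0.39 for PGK1, 0.61 for ALDOA and −0.21 for ALDOC.

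GAPDH, PKM and LDHA did not pass the test. GAPDH was at 4014 ± 875 CPM in growing and 4721 ± 602 CPM in senescent cells (SD, n = 6), a log2 fold change of 0.23 ± 0.15 (adjusted p = 0.194). PKM, the pyruvate kinase, was at 2646 ± 858 and 3278 ± 423 CPM (adjusted p = 0.203). LDHA was at 546 ± 163 and 656 ± 55.2 CPM (adjusted p = 0.262). Without 4-2V their log2 fold changes were 0.12 for GAPDH, 0.14 for PKM and 0.11 for LDHA. Across the step order, 9 of 16 enzymes were called higher (23.9% of all genes) and the other 7 were not called, with none lower (28.9% of all genes) and a median log2 fold change of 0.47. GAPDH and PGAM1 have many pseudogenes, and reads that such copies share could be split by the counting.

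**Figure D3:**
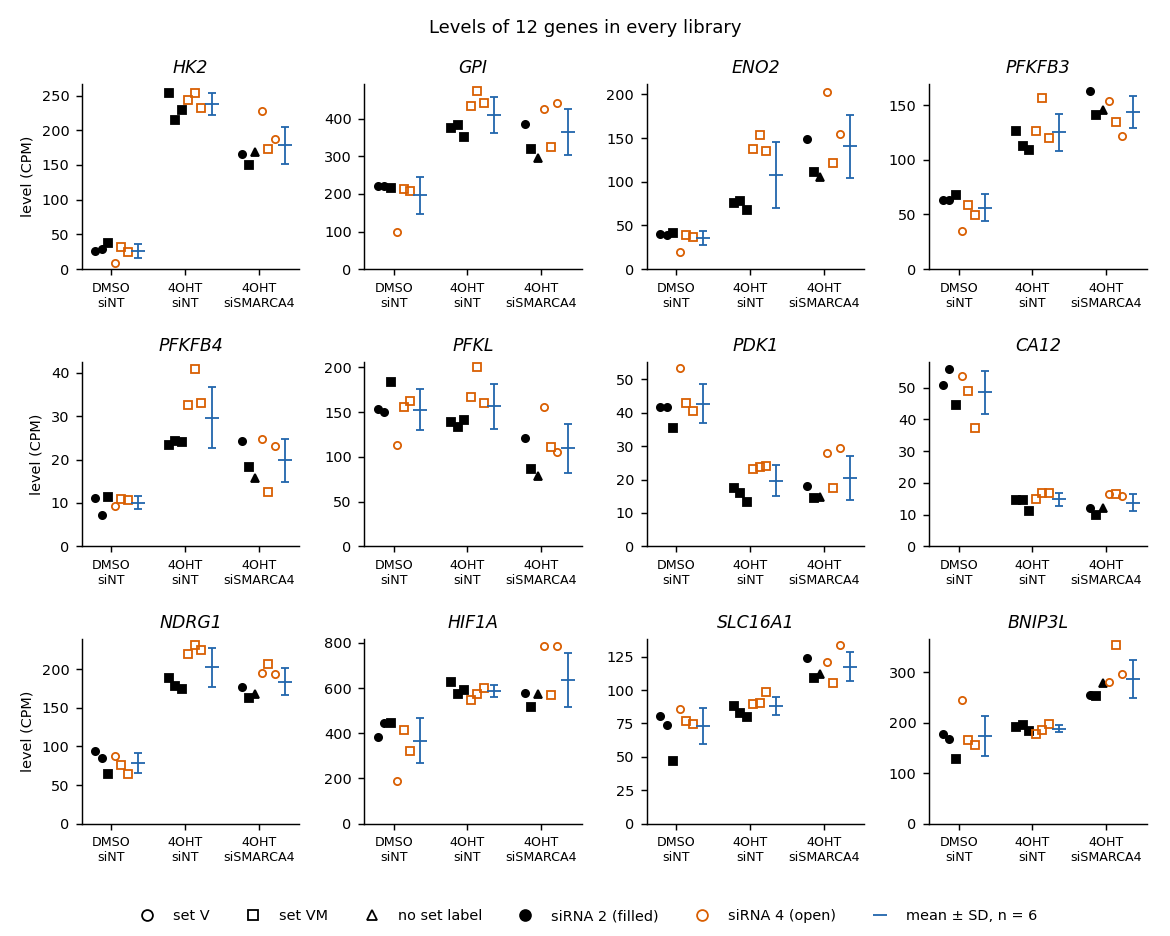
Level in CPM of 12 members in each of the 18 libraries by group, with symbols for the set letters, filled black for siRNA 2 and open orange for siRNA 4, and the mean ± SD (n = 6) in blue. HK2 sits at 9.08 to 37.5 CPM in growing and 215 to 254 CPM in senescent libraries, and BNIP3L lies above both other groups in every knockdown library.

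Enzymes that set flux without being part of the chain changed strongly and not in 1 direction. PFKFB3 and PFKFB4 can both make and break down fructose 2,6-bisphosphate, the activator of phosphofructokinase. PFKFB3 ran from 34.9 to 67.8 CPM (median 60.9) in growing and from 109 to 156 CPM (median 123) in senescent libraries and rose by 1.15 ± 0.14 (adjusted p = 9.52e-07). PFKFB4 ran from 7.25 to 11.3 CPM (median 10.8) and from 23.3 to 40.9 CPM (median 28.4) and rose by 1.55 ± 0.18 (adjusted p = 7.81e-07). PDK1, the kinase that holds back pyruvate dehydrogenase and so entry of pyruvate into the mitochondrion, ran from 35.5 to 53.3 CPM (median 41.7) in growing and from 13.2 to 24.1 CPM (median 20.4) in senescent libraries. None of these 3 genes had overlapping groups, and PDK1 fell by 1.11 ± 0.19 on the log2 scale (adjusted p = 7.04e-05). Within VM sets the log2 fold changes were 1.10, 1.44 and −1.01, and without 4-2V they were 1.06, 1.54 and −1.03.

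At the membrane, the high-affinity glucose transporter SLC2A3 (GLUT3) ran from 60.6 to 88.6 CPM (median 64.1) in growing and from 121 to 133 CPM (median 126) in senescent libraries. It rose by 0.90 ± 0.10 (adjusted p = 1.9e-07), and by 1.00 without 4-2V. Its highest growing library was 4-2V, and reads that it shares with its close copy SLC2A14 may be split between them. The widespread transporter SLC2A1 (GLUT1) ran from 82.5 to 290 CPM (median 209) and from 132 to 159 CPM (median 144). Its log2 fold change was −0.49 ± 0.22 (adjusted p = 0.0751), and without 4-2V, its lowest growing library, it was −0.64 (adjusted p = 0.0019). Within VM sets it was −0.52 (adjusted p = 0.011). The lactate exporter SLC16A3 (MCT4) rose by 0.58 ± 0.15 (adjusted p = 0.00275), from 324 to 483 CPM, and by 0.57 without 4-2V. SLC16A1 (MCT1), which carries lactate in either direction, was at 73.0 and 88.1 CPM (adjusted p = 0.0567), and without 4-2V it was called higher at 0.33 (adjusted p = 0.015).

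The HIF subunit mRNAs moved in opposite directions. HIF1A ran from 188 to 447 CPM (median 401) in growing and from 549 to 626 CPM (median 584) in senescent libraries and rose by 0.67 ± 0.17 (adjusted p = 0.00247). EPAS1 ran from 250 to 663 CPM (median 398) and from 216 to 328 CPM (median 266), with overlap, and fell by 0.63 ± 0.20 on the log2 scale (adjusted p = 0.0115). The EPAS1 call did not hold within VM sets, where its log2 fold change was −0.35 (adjusted p = 0.078), or with the siNT 2 libraries of 4OHT_siNT alone (−0.42, adjusted p = 0.20). That of HIF1A was 0.57 within VM sets (adjusted p = 0.00018). Without 4-2V the log2 fold changes were 0.55 for HIF1A and −0.70 for EPAS1.

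Of the 8 HIF targets tested, 3 rose, where 23.9% of all genes did, 2 fell, where 28.9% did, and 3 did not pass the test, with a median log2 fold change of 0.23. NDRG1, a stress-response gene, ran from 63.8 to 94.1 CPM (median 80.5) in growing and from 174 to 231 CPM (median 204) in senescent libraries and rose by 1.37 ± 0.12 (adjusted p = 1.03e-08). KDM3A, a histone H3 lysine 9 demethylase, ran from 12.4 to 26.3 CPM (median 22.6) and from 30.7 to 41.0 CPM (median 36.1) and rose by 0.72 ± 0.14 (adjusted p = 0.000265). CA12, a membrane carbonic anhydrase that handles the acid of metabolism, ran from 37.2 to 55.9 CPM (median 49.8) and from 11.2 to 16.8 CPM (median 14.9). The groups were well separated, and CA12 fell by 1.71 ± 0.14 on the log2 scale (adjusted p = 6.91e-09). ADM, which encodes the vasodilator peptide adrenomedullin, ran from 121 to 318 CPM (median 158) and from 104 to 129 CPM (median 121) and fell by 0.62 ± 0.19 (adjusted p = 0.0106). Its highest library was 4-2V, and within VM sets its log2 fold change was −0.20 (adjusted p = 0.15). Without 4-2V the changes were 1.41 for NDRG1, 0.62 for KDM3A, −1.67 for CA12 and −0.39 for ADM, all called.

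BNIP3, a mitophagy receptor of the outer mitochondrial membrane, rose by 0.35 ± 0.12 (adjusted p = 0.0243), from 89.5 to 114 CPM, and lost the call without 4OHT_siNT 4-2VM (0.31, adjusted p = 0.0537); without DMSO_siNT 4-2V it was 0.36. Its relative BNIP3L was at 173 and 188 CPM, ANKRD37 at 1.66 and 2.26 CPM and HILPDA at 11.6 and 8.38 CPM, and none was called. Without 4-2V, BNIP3L was called at 0.25 (adjusted p = 0.022) and ANKRD37 at 0.77 (adjusted p = 0.011). HILPDA changed direction without it, from a log2 fold change of −0.45 to 0.12 (adjusted p = 0.44). CA9, the tumour-associated carbonic anhydrase that is a classical marker of HIF1 activity, and EGLN3, a HIF-induced prolyl hydroxylase, were too low to test. CA9 did not exceed 0.546 CPM in any library and EGLN3 did not exceed 0.286 CPM.

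SMARCA4 knockdown was compared next within senescent cells, as 4OHT_siSMARCA4 against 4OHT_siNT. Of the 33 members, 2 were called higher and 2 lower, where 4.99% and 5.65% of all genes were. The median log2 fold change was −0.01 for the members and 0.01 for all genes. In 2 members (BNIP3L and SLC16A1) every knockdown library lay above every 4OHT_siNT library, and in 1 (PFKM) every one lay below, shares that were 5.12% and 6.27% over all genes. Without the 4-2V library of DMSO_siNT, which belongs to neither group of this comparison but enters the shared estimate of the spread, 4 members were called higher (11.7% of all genes) and 4 lower (12.9%). The added members were SLC2A3 and ANKRD37 among the higher, and HK2 and PFKM among the lower. Within VM sets, where the knockdown group held 2 libraries, 2 members were called higher (8.76% of all genes) and 4 lower (12.2%). A further knockdown library, called unlabelled here, was left out of these sets. Its column name gave the set 1VM but matched no sample title. With it added, 2 members were called higher (13.6% of all genes) and 8 lower (16.7%).

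BNIP3L had the smallest adjusted p of the members. It ran from 177 to 197 CPM (median 189) in 4OHT_siNT and from 252 to 355 CPM (median 279) in 4OHT_siSMARCA4 libraries. Every knockdown library was above every control library, and BNIP3L rose by 0.60 ± 0.13 on the log2 scale (adjusted p = 0.00431), or 1.52-fold. Leaving out any of the 18 libraries in turn kept the call, with log2 fold changes of 0.52 to 0.63. Within VM sets it was 0.67 (adjusted p = 0.0012). With siRNA 2 of the knockdown alone it was 0.47 (adjusted p = 0.061) and with siRNA 4 alone 0.72 (adjusted p = 0.024). Against siNT 2 libraries alone it was 0.58 (adjusted p = 0.062) and against siNT 4 libraries alone 0.60 (adjusted p = 0.057).

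SLC16A1 ran from 79.9 to 98.2 CPM (median 88.7) in 4OHT_siNT and from 106 to 134 CPM (median 117) in knockdown libraries, and rose by 0.42 ± 0.12 (adjusted p = 0.026). Its call was lost without any 1 of 7 libraries (4OHT_siNT 2-1VM, 4-1VM, 2-2VM and 2-3VM, and knockdown 2-3V, 4-3V and the unlabelled library), where the adjusted p reached up to 0.0651. Within VM sets it was 0.27 (adjusted p = 0.21), against siNT 2 alone 0.49 (adjusted p = 0.085) and against siNT 4 alone 0.33 (adjusted p = 0.24).

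PFKL and PFKFB4 were called lower. PFKL ran from 133 to 200 CPM (median 150) in 4OHT_siNT and from 79.1 to 155 CPM (median 108) in knockdown libraries, with overlap, and fell by 0.51 ± 0.15 on the log2 scale (adjusted p = 0.0362). PFKFB4 ran from 23.3 to 40.9 CPM (median 28.4) and from 12.5 to 24.7 CPM (median 20.7), also with overlap, and fell by 0.58 ± 0.18 (adjusted p = 0.0408). The call on knockdown was lost for both without any 1 of the 3 4OHT_siNT libraries of siRNA 4, without knockdown 4-2VM, 2-3VM or the unlabelled library, and for PFKL also without knockdown 4-3V, with adjusted p up to 0.105 for PFKFB4 and 0.091 for PFKL. Within VM sets the log2 fold changes were −0.96 for PFKFB4 (adjusted p = 0.0073) and −0.68 for PFKL (adjusted p = 0.0067). Against siNT 2 alone they were −0.28 for PFKFB4 (adjusted p = 0.56) and −0.33 for PFKL (adjusted p = 0.40), and against siNT 4 alone −0.85 (adjusted p = 0.026) and −0.69 (adjusted p = 0.048). Against growing cells, knockdown libraries held PFKFB4 at 0.97 ± 0.18 (adjusted p = 0.000176) and PFKL at −0.48 ± 0.15 (adjusted p = 0.0133), or 0.95 and −0.55 without 4-2V. That PFKFB4 difference was 0.49 within VM sets (adjusted p = 0.13), and that of PFKL was −0.12 within V sets (adjusted p = 0.75) and −0.29 with siSMARCA4_4 alone (adjusted p = 0.21).

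HK2 ran from 150 to 227 CPM (median 171) in knockdown libraries against 215 to 254 CPM (median 238) in 4OHT_siNT. Its log2 fold change of −0.41 ± 0.20 had an adjusted p of 0.215. Without 4-2V it was −0.42 (adjusted p = 0.0054) and within VM sets −0.58 (adjusted p = 0.0063). With 1 siRNA at a time in either group it was not called (adjusted p of 0.227 or more). Knockdown libraries held HK2 at 6.79-fold the growing level, a log2 difference that was 2.59 without 4-2V. In the main fit PFKL was the only enzyme of the 16 called on knockdown. Within VM sets GPI (−0.36, adjusted p = 0.040) was called lower beside PFKL and HK2. With the unlabelled library added to these sets, ALDOA (−0.67, adjusted p = 0.016), PFKM and TPI1 were called lower as well. The summed level of the 16 enzymes was 13055 ± 1498 CPM in 4OHT_siNT and 12726 ± 819 CPM in 4OHT_siSMARCA4 (SD, n = 6). Most of this sum was GAPDH (means of 4721 and 4705 CPM) and PKM (3278 and 3196 CPM). ENO2 was at 108 ± 38.1 and 141 ± 36.2 CPM and was not called, but against siNT 2 libraries alone it was higher by 0.92 (adjusted p = 0.030), and against siNT 4 libraries alone its change was −0.02 (adjusted p = 0.97).

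Set against growing cells, knockdown libraries had 17 members called higher, where 23.3% of all genes were, and 5 lower, where 27.3% were. This comparison shares libraries with both others, so its values are given side by side with theirs. Without 4-2V the counts were 19 (28.7% of all genes) and 5 (30.5%). SLC2A1, not called in senescence, was lower at −0.70 ± 0.23 (adjusted p = 0.0137), while SLC2A3 was higher at 1.14 ± 0.10. BNIP3 was at 0.64 ± 0.12 and BNIP3L at 0.72 ± 0.13. CA12 was at −1.81 ± 0.14, PDK1 at −1.06 ± 0.19 and EPAS1 at −0.88 ± 0.20. Without 4-2V the differences were −0.86 for SLC2A1, 1.22 for SLC2A3, 0.64 for BNIP3, 0.84 for BNIP3L, −1.78 for CA12, −0.99 for PDK1 and −0.96 for EPAS1, all called. Those of SLC2A3, CA12 and PDK1 were also called within V sets, within VM sets and with either SMARCA4 siRNA alone. SLC2A1 was at −0.46 within V sets (adjusted p = 0.49) and −0.43 with siSMARCA4_4 alone (adjusted p = 0.24), and BNIP3L was at 0.49 within V sets (adjusted p = 0.17). Within VM sets BNIP3 was at 0.37 (adjusted p = 0.064) and EPAS1 at −0.42 (adjusted p = 0.12).

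The 2 siRNAs within each senescent group were compared next. Among the 4OHT_siNT libraries, all 3 with siNT 4 lay above all 3 with siNT 2 in 23 of 33 members, where 17.9% of all genes did, and below in 1, where 20.0% did. The summed level of the enzymes was 11725 ± 230 CPM with siNT 2 and 14386 ± 493 CPM with siNT 4 (SD, n = 3). The log2 difference, siNT 2 minus siNT 4, was negative in 29 of 33 members, with a median of −0.27. ENO2 was at −0.95, ALDOC at −0.94 and ALDOA at −0.68. By edgeR no member was called (adjusted p of 0.102 or more), where 0.0732% of all genes were. An unadjusted p under 0.05 was found for 7 of 33 members and for 1447 of the 13659 genes tested. DESeq2 called ENO2 and ALDOC lower with siNT 2, where 0.337% of all genes were. Without 4-2V, edgeR called 4 members lower with siNT 2 (PDK1, ENO2, PKM and ALDOC), where 1.23% of all genes were. Against growing cells, siNT 2 libraries alone gave 10 members higher (17.9% of all genes) and 3 lower (21.0%), and siNT 4 libraries alone 18 higher (19.3%) and 3 lower (23.2%). Of the 21 senescence calls, 9 were lost with siNT 2 alone (HK1, PFKM, ALDOA, PGK1, PGAM1, SLC16A3, EPAS1, BNIP3 and ADM) and 1 with siNT 4 alone (ADM), when fewer libraries entered the fit.

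**Figure D4:**
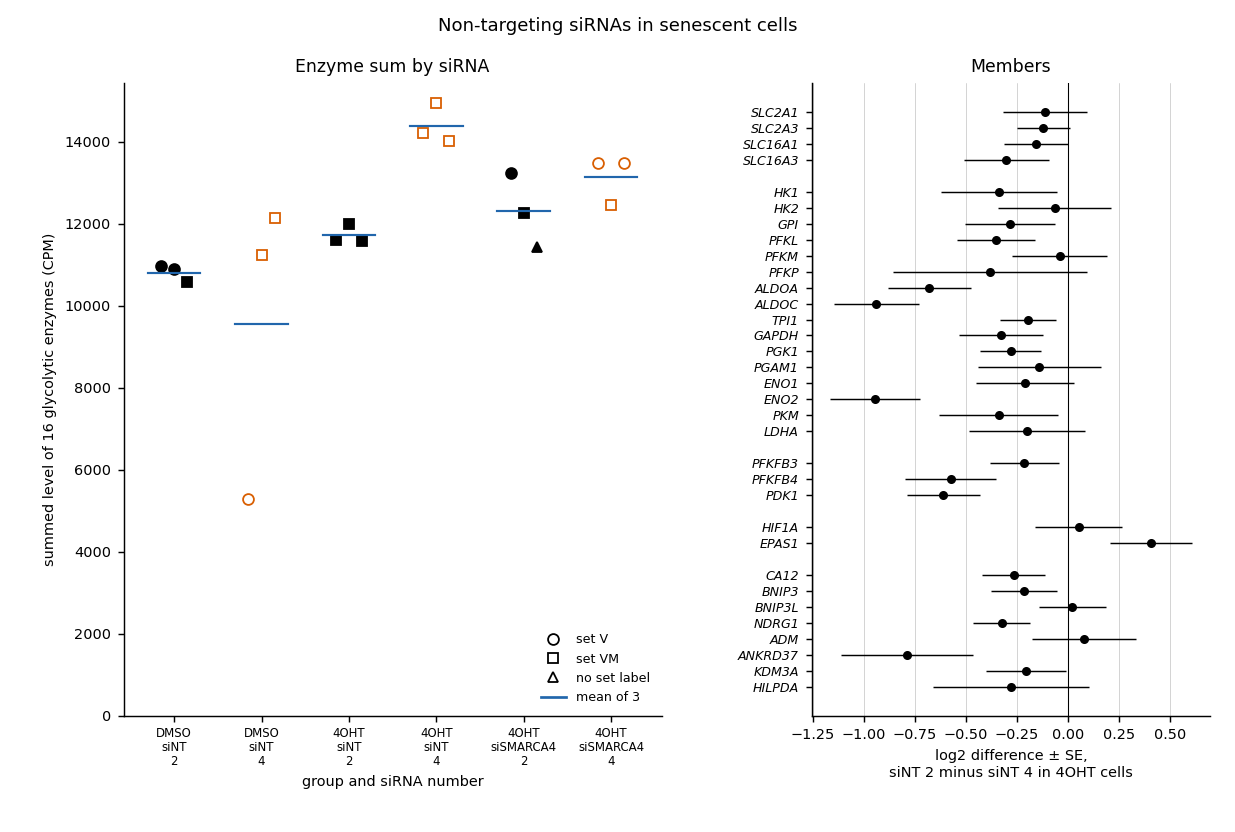
Left, summed level in CPM of the 16 glycolytic enzymes in each library by group and siRNA number, with symbols for set letters and a blue line at the mean of 3; right, log2 difference ± SE of each member between siNT 2 and siNT 4 in 4OHT cells. The siNT 4 libraries of 4OHT_siNT sit at 14010 to 14944 CPM, above the siNT 2 libraries at 11578 to 11990 CPM, and 29 of 33 members lie left of 0.

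Between the SMARCA4 siRNAs, siSMARCA4_2 minus siSMARCA4_4 was negative in 27 of 33 members, with a median of −0.18. No member was called by edgeR or by DESeq2, where 0.00732% of all genes were by edgeR. An unadjusted p under 0.05 was found for 5 of 33 members and for 878 of the 13659 genes tested. PDK1 had the smallest p, at a log2 difference of −0.64 (adjusted p = 0.384). With 1 siRNA number at a time, the knockdown comparison called PFKL alone for siSMARCA4_2, lower, where 5.05% of all genes were, and BNIP3L alone for siSMARCA4_4, higher, where 0.822% were.

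Set letters were not balanced over the groups, so V and VM sets were compared where both existed. V minus VM called no member by edgeR or DESeq2 within DMSO_siNT (0.324% of all genes by edgeR) or within 4OHT_siSMARCA4 (0.101%). The test of whether knockdown minus growing differed between V and VM called none either (0.0864%). At an unadjusted p under 0.05 were 4 of 33 members within DMSO_siNT, 5 within 4OHT_siSMARCA4 and 7 in the last test. Of the 13887 genes tested, 2217, 1132 and 1338 were, in the same order. LDHA was at 799 to 839 CPM in the 3 V libraries of 4OHT_siSMARCA4 and at 570 to 604 CPM in the 2 VM libraries, and without 4-2V this difference of 0.50 was called (adjusted p = 0.0338), the 1 member called higher, where 1.14% of all genes were. ADM within DMSO_siNT had the smallest p, with 0.73 higher in V (adjusted p = 0.16). Without 4-2V, a V library, ADM was at 0.44 (adjusted p = 0.33), and EPAS1 had the smallest p, at 0.76 (adjusted p = 0.084).

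Genes around the pathway were counted from lists of related genes, with 4-2V among the growing libraries. These counts are to be read against the shares of all genes called (23.9% higher and 28.9% lower in senescence, 4.99% and 5.65% on knockdown). PFKFB2, higher in senescence, and GBE1, lower, were counted both among the other HIF targets and among the other glycolytic isoforms and feeder genes. Of 30 other HIF targets, all tested, 18 rose and 4 fell in senescence, with a median of 0.51. STC1, a secreted calcium and phosphate regulator, rose most at 4.20 ± 0.15, from 183 to 3360 CPM, and ZNF395 fell most, by 2.39 ± 0.36 on the log2 scale. On knockdown 4 rose (4.99% of all genes), with a median of 0.05, and RORA, a nuclear receptor, rose most at 1.11 ± 0.15 (adjusted p = 0.000114).

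Of 20 other glycolytic isoforms and feeder genes tested, 8 rose (23.9% of all genes) and 6 fell (28.9%) in senescence, with a median of 0.24. BPGM, the mutase that makes 2,3-bisphosphoglycerate, rose most at 2.46 ± 0.12, from 42.9 to 236 CPM. The transporter SLC16A7 (MCT2) fell most, by 1.82 ± 0.17 on the log2 scale. On knockdown 2 rose (4.99% of all genes) and 1 fell (5.65%): BPGM rose most, at 0.62 ± 0.11 (adjusted p = 0.00163), and the phosphoglucomutase PGM2 fell by 0.58 ± 0.16 on the log2 scale (adjusted p = 0.0284).

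Of 12 genes of pyruvate entry to mitochondria, 3 rose (23.9% of all genes) and 5 fell (28.9%) in senescence, with a median of −0.22. PDK3 rose most at 0.82 ± 0.26 and the carboxylase PC fell most, by 0.89 ± 0.26 on the log2 scale. On knockdown the smallest adjusted p of this list was 0.0868, for PDHA1 at −0.25 ± 0.09. Of 8 genes of the pentose phosphate pathway, 2 fell in senescence (28.9% of all genes), RPIA most by 0.48 ± 0.17 on the log2 scale, and on knockdown 1 did (5.65%), the transketolase TKT, which fell by 0.38 ± 0.10 (adjusted p = 0.0136). Of 16 genes of oxygen sensing, 3 rose and 5 fell in senescence, beside the same 23.9% and 28.9% of all genes, with a median of −0.13. EGLN1, the main HIF prolyl hydroxylase, rose most at 0.67 ± 0.14, and ARNT2, a partner of HIF subunits, fell most by 2.56 ± 0.23 on the log2 scale. On knockdown the smallest adjusted p of this list was 0.0549, for the ubiquitin ligase SIAH1 at 0.43 ± 0.14.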

How the data were processed

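RNA sequencing was measured in 3 groups of 6 libraries. The authors deposited raw counts per gene, not normalized, in 36 columns, 1 for each library and lane, and the 2 lanes were summed. All 36 columns were used. The submitters' processing notes name STAR 2.7.8a, DESeq2 1.36.0 and hg38. The annotation, the counting program and whether counting used strand are not given in the sources used here, so reads of overlapping genes may be split or shared. A column was found for 17 of the 29 labelled samples. A further column, of 4OHT_siSMARCA4 with siRNA 2, carried a set name that no matching sample had and was used as a replicate with no set label. Samples without a column were not analysed here. Every line of counts named a gene.

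Genes were kept by filterByExpr of edgeR (minimum count 10), which left 13136 genes with 99.9% of counts, and TMM set the scale. Tests were two-sided and used the quasi-likelihood F-test (edgeR 4.0.16, R 4.3.3) in 1 fit of the 18 libraries, with Benjamini-Hochberg adjusted p-values across the genes kept. Standard errors were derived from the F statistic. The common biological coefficient of variation was 23.3%. The siRNAs were tested in a fit with 6 levels (13659 genes) and the set letters in a fit with 5 levels (13887 genes) over 17 libraries. Lists were described by counts and medians, without a set test. The fits were tested on simulated data. Pairs of libraries within a group (45 in all) were compared by the chi-square of their counts per degree of freedom, 2.33 to 315, and none was treated as a duplicate. Alternatives covered the scaling, DESeq2 1.42.0, the filter, the groups in the fit, siRNAs, set letters, a replicate block, a 1.5-fold minimum and leaving out each library; a block with the unlabelled library placed in set 1VM was chosen after seeing the data. The members and lists were chosen with earlier results of these data known. A member was described in full when called with at least a 1.5-fold change in senescence or on knockdown, or where a result turned on it, and from each other list the called genes with the largest rise and the largest fall were named. Counting error is small for most members at these depths, and is largest for CA9, EGLN3 and ANKRD37, whose levels were under 5 CPM in every library.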

Additional observations from a re-analysis of the deposited data

Results flagged for a closer look

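Of 99 sets of 6 libraries (33 members in 3 groups), 17 held a library beyond the 95% limit of Dixon's ratio of 0.625. The ratio is the gap to the nearest other library as a share of the range, taken on log2 CPM. Chance flags about 1 in 20 sets, or 4.95 here. The DMSO_siNT 4-2V library accounted for 14 of the 17. It was the lowest library for HK1 (gap as a share of the range, 0.799), HK2 (0.699), GPI (0.927), PFKM (0.857), PFKP (0.834), GAPDH (0.774), PGAM1 (0.853), ENO1 (0.953), ENO2 (0.856), PKM (0.803), LDHA (0.822) and KDM3A (0.673), and the highest for SLC2A3 (0.743) and HILPDA (0.865). These genes share 1 library, so the flags are not independent of each other. The same library had the fewest counts of all 18, 9657309, and the most genes with a count, 17915; their part in the low enzyme levels was not tested.

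Elsewhere, SLC16A1 was low in DMSO_siNT 2-2VM (0.746), CA12 was low in 4OHT_siNT 2-3VM (0.64) and HILPDA was low in 4OHT_siSMARCA4 2-3VM (0.66).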

How the results depend on the processing

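Shares of all genes called stand in brackets, higher then lower. In senescence, 17 members were called higher and 4 lower (23.9%, 28.9%); leaving out each library in turn gave 16 to 21 and 4 to 5, with the highest counts without DMSO_siNT 4-2V (27.9%, 30.3%). With siNT 2 libraries alone 10 were higher (17.9%). For knockdown against growing the counts were 17 and 5 (23.3%, 27.3%); leaving out each library gave 16 to 19 and 5 to 6, V sets alone 11 and 3 (8.37%, 12.7%), and siSMARCA4_4 alone 3 lower (21.0%). The knockdown comparison, with 2 and 2 called (4.99%, 5.65%), moved most: leaving out each library gave 1 to 4 higher and 0 to 4 lower, with 4 and 4 without DMSO_siNT 4-2V (11.7%, 12.9%). It was 1 and 0 with a 1.5-fold minimum (2.50%, 4.44%), 4 and 4 with only the groups compared in the fit (13.3%, 13.6%), 0 lower with every gene that had a count (2.81%), 1 and 0 against siNT 2 alone (1.63%, 3.19%), 0 higher against siNT 4 alone (2.25%), 0 and 1 for siSMARCA4_2 (3.58%, 5.05%), 1 and 0 for siSMARCA4_4 (0.822%, 1.04%), 4 lower within VM sets (12.2%) and 8 lower when the unlabelled library was added to these (16.7%). For siNT 2 minus siNT 4 DESeq2 called 2 lower (0.337%), and without 4-2V edgeR called 4 (1.23%); without 4-2V, siSMARCA4_2 minus siSMARCA4_4 gave 1 lower (SLC2A1; 0.231%) and V minus VM on knockdown 1 higher (LDHA; 1.14%). The cause was not tested. No member changed sign while called in either fit. RLE and upper-quartile scaling moved no count by over 1.5 times.

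Deviations of same-set samples had correlations of −0.23 to 0.27 over 7 pairings of groups and sets. They were positive for set 3VM (0.15 to 0.27) and negative for sets 2V and 2VM. Set names were not used to pair libraries in the main fit. With a replicate block of set labels, 14 members were higher and 2 lower in senescence (15.2%, 17.5%), 0 and 0 on knockdown (0.638%, 1.13%), and 14 and 2 for knockdown against growing (16.3%, 18.8%); with the unlabelled library put in set 1VM the counts were 14 and 2 (17.8%, 19.9%), 1 and 0 (3.03%, 4.38%), and 15 and 3 (18.2%, 20.4%). The counts of ALDOA, HILPDA and the members with pseudogenes depend on how reads shared with other genes were assigned.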
